A study of Mus musculus with 12 samples.

Results

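The genes described here code for proteins that neutrophils make late in their maturation. They are S100a8, S100a9, Ngp, Camp, Ltf, Lcn2, Mmp8, Mmp9, Retnlg and Cxcr2, which are 10 of the 49315 genes in a table of raw read counts. They were found by matching their symbols to Ensembl gene identifiers through the mouse GRCm38 annotation, and each matched a single row. The counts came from RNASeq of T cells taken from spleens by magnetic negative selection, a method that removes other cells with antibodies and leaves the T cells untouched. The mice were 12-week-old males given the vehicle alone (sham) or angiotensin II (Ang II) from osmotic minipumps, at 490 ng/kg daily over 14 days, an infusion that raises blood pressure. Wild-type (WT) mice and mice that lack miR-214 in all tissues (miR-214-/-), both of the line listed as S129/C57, gave 4 groups of 3 mice with 1 library per mouse. The deletion is not limited to T cells, so other cells left in the isolate lack miR-214 as well.

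Neutrophils fill their granules in a fixed order as they mature in the bone marrow, and in mice also in the spleen. Promyelocytes make the azurophil granule proteins such as myeloperoxidase, myelocytes and metamyelocytes then make the specific and gelatinase granule proteins, and the transcripts of S100a8 and S100a9 stay abundant into the mature cell. T cells are not known as a main source of these transcripts.

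S100a8 (chr3:90668978-90670035, plus strand) and S100a9 (chr3:90692632-90695721, minus strand) are neighbours that code for the pair of subunits of calprotectin, a calcium-binding and metal-binding protein of the neutrophil cytosol. Camp (chr9:109847379-109849617, minus strand), Ngp (chr9:110419747-110423012, plus strand) and Ltf (chr9:111019271-111042767, plus strand) lie in the same part of chromosome 9, and Mmp8 lies far from them on that chromosome. All 10 genes are annotated as protein coding, and none overlaps another annotated gene. The stretch from 250 bases before to 50 bases after the annotated start was read for 9 of the 10 genes from RefSeq (GRCm38.p6). The 4 windows below show the calprotectin pair and 2 granule genes that differ in their matches. They are given 5′ to 3′ on the strand of the gene, at chr3:90668821-90669120 on the plus strand for S100a8, chr3:90695672-90695971 on the minus strand for S100a9, chr9:110419558-110419857 on the plus strand for Ngp and chr9:109849407-109849706 on the minus strand for Camp. Capitals mark matches, on either strand, to a C/EBP motif (TTNNGNAA), a PU.1 motif (GAGGAAG) and a TATA box (TATAAA), none of which overlap in these windows.
S100a8: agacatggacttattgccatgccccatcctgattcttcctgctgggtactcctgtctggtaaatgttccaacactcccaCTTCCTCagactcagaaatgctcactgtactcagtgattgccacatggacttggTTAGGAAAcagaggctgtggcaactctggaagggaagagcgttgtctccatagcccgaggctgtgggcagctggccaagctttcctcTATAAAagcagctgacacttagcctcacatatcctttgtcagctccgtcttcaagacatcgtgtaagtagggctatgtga
S100a9: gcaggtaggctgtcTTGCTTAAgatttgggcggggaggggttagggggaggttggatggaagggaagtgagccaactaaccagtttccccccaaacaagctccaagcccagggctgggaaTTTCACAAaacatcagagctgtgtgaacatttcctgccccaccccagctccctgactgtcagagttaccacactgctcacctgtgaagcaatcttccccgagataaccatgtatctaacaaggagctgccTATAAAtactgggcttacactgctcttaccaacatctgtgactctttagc
Ngp: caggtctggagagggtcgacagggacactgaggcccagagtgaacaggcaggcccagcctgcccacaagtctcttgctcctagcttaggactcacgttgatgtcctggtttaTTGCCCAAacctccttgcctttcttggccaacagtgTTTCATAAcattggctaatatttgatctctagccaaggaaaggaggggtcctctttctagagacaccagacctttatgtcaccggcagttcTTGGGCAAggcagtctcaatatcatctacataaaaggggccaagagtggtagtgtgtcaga
Camp: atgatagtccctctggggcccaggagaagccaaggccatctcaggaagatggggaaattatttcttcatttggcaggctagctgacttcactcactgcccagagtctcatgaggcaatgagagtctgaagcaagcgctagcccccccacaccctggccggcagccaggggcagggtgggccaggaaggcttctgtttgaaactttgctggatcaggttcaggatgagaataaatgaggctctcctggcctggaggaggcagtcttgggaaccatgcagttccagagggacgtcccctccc

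C/EBP and PU.1 factors are the main transcription factors of granulocyte genes. The C/EBP letters were present in 7 of the 9 windows, with 3 matches in Ngp, 2 each in S100a9, Ltf and Mmp8, and 1 each in S100a8, Lcn2 and Retnlg, and they were not present in the windows of Camp and Cxcr2. Of all 27025 promoter windows of the same length, 40.7% held them. PU.1 letters were found in S100a8, Lcn2 and Mmp8, against 13.5% of all windows, and TATA letters in S100a8, S100a9 and Mmp8, against 14.2%. The TATA letters of S100a8 began at position -30 from the annotated start. Those of S100a9 began at position 0, the start itself, and whether they act as a TATA box was not tested. The windows follow the RefSeq starts. The GENCODE start of S100a9 was the same, while those of S100a8, Ngp, Camp and Lcn2 were 93, 61, 161 and 513 bases away, and other windows around these starts were not searched. Such matches describe letters and no binding was measured here.

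Total counts per library were between 21126874 and 29605988. Mir214 itself had 0 counts in all 12 libraries, which leaves room for an expected count of up to about 3 in each. Libraries made from poly(A) RNA do not measure a mature miRNA, and its counts are no check of the genotype. The defining markers of T cells were abundant, with Tcf7 at 1493.2 ± 81.5 CPM (counts scaled to a common library size, SD, n = 3) and Lck at 860 ± 82.3 CPM in WT sham. The summed level of 16 T cell markers was between 5236 and 8622.9 CPM in the 12 libraries. Nothing in the sources used here says whether the 3 mice of a group were treated and processed together. WT Ang II replicate 1 and miR-214-/- Ang II replicate 2 stood apart from the other libraries in the genes described here, with a summed level of 3186 and 3207.3 CPM, while the remaining 10 libraries were between 160 and 1176.8 CPM. The median fold changes of the 10 genes are given with and without them.

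The 10 genes took 0.0163% to 0.0212% of all counts in WT sham and 0.0941% to 0.325% in WT Ang II. In miR-214-/- they took 0.0497%, 0.0163% and 0.086% of counts in sham, and 0.0708%, 0.299% and 0.0313% in Ang II. The WT groups were therefore apart, while the miR-214-/- groups overlapped. In bulk libraries fewer cells of a type and less RNA per cell cannot be told apart, so these shares do not say how many cells carried the transcripts.

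**Figure D1:**
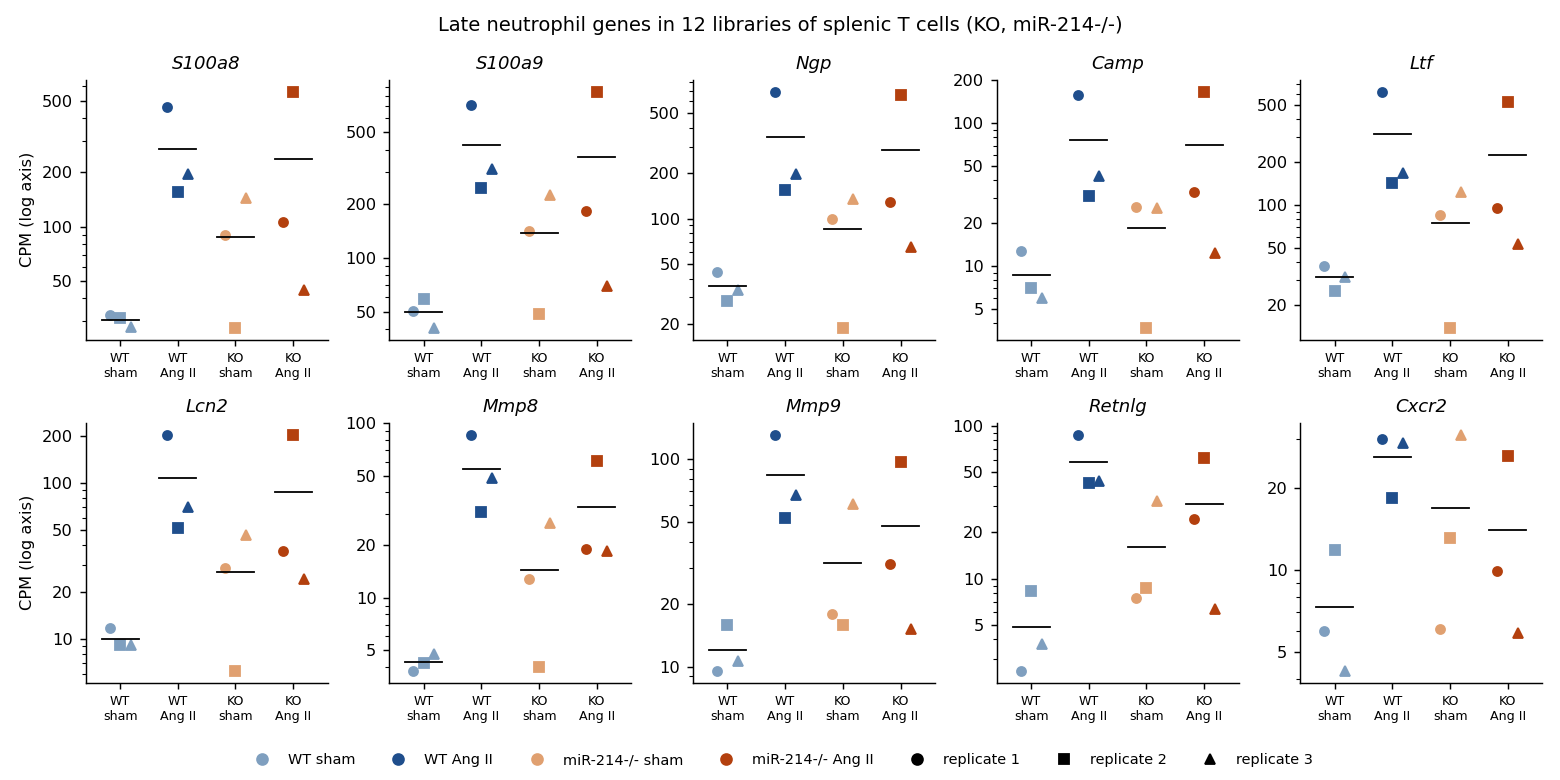
Level of each of the 10 genes in the 12 libraries, in CPM on a log axis that differs between panels. Points are libraries, their shape gives the replicate number, the lines are group means and KO stands for miR-214-/-. In each panel the 3 WT Ang II points lie above the 3 WT sham points, and miR-214-/- Ang II replicate 2 lies far above replicates 1 and 3 of its group.

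In WT mice, all 10 genes were higher after Ang II infusion. The median log2 fold change was 3.25, against -0.02 over all genes tested. A gene was called where edgeR's quasi-likelihood test gave an adjusted p below 0.05 and the log2 fold change exceeded 1 in size, and 10 of 10 genes were called higher, where 7.01% of all genes tested were called higher and 0.294% lower. Each of the 10 was also higher in every Ang II library than in every sham library, as were 19.1% of all genes tested. DESeq2 called the same 10 of 10 genes higher, where it called 7.98% of all genes. The rise was not even across libraries, since WT Ang II replicate 1 held the highest value and replicate 2 the lowest value of its group for all 10 genes. Without replicate 1 the median log2 fold change was 2.42 and 10 genes were still called. Calls were lost when a sham library was left out: Cxcr2, Camp, Ngp and Ltf were not called without WT sham replicate 1 or without replicate 3, and Camp, Ngp and Ltf were not called without replicate 2.

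S100a8 was at 32.4, 31.2 and 27.6 CPM in the 3 WT sham libraries and at 459, 156 and 197 CPM in WT Ang II. The lowest Ang II library was well above the highest sham library. S100a8 rose by a log2 fold change of 3.18 ± 0.41 (SE, adjusted p = 0.0052, edgeR). S100a9, its partner in calprotectin, was at 50.2, 58.4 and 40.6 CPM in sham and at 714, 246 and 312 CPM in Ang II. Its groups did not overlap either, and its log2 fold change was 3.12 ± 0.42 (SE, adjusted p = 0.00576, edgeR). In both genes the sham libraries were close together and the spread lay in the Ang II group.

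Among genes of the specific granules, Ngp codes for a cystatin-like granule protein. It was at 44.5, 28.4 and 33.7 CPM in WT sham and at 694, 154 and 198 CPM in WT Ang II. Ngp was higher in each Ang II library than in any sham library, by a log2 fold change of 3.32 ± 0.6 (SE, adjusted p = 0.0138, edgeR). Ltf, which codes for the iron-binding protein lactoferrin, was at 37.7, 25.3 and 31.4 CPM in sham and at 623, 142 and 169 CPM in Ang II. It rose by 3.34 ± 0.6 on the log2 scale (SE, adjusted p = 0.0135, edgeR), again with no overlap. Camp, the gene of the antimicrobial peptide cathelicidin, was at 12.8, 7.1 and 6.01 CPM in sham and at 157, 31.1 and 43 CPM in Ang II. Its groups were apart, but its error was the widest of the 10, at 3.18 ± 0.68 on the log2 scale (SE, adjusted p = 0.022, edgeR), and it was not called in edgeR's robust fit (adjusted p = 0.0592). Lcn2, whose product lipocalin-2 binds the iron carriers of bacteria, was at 11.8, 9.17 and 9.24 CPM in sham and at 203, 51.9 and 69.8 CPM in Ang II. All Ang II libraries exceeded all sham libraries for Lcn2, which rose by 3.45 ± 0.54 (SE, adjusted p = 0.00845, edgeR).

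The matrix-degrading enzymes of neutrophil granules moved in the same direction. Mmp8, the neutrophil collagenase, was at 3.8, 4.21 and 4.78 CPM in WT sham and at 85.6, 30.7 and 48.2 CPM in WT Ang II. It had the largest log2 fold change of the 10, at 3.71 ± 0.39 (SE, adjusted p = 0.00267, edgeR), and was called whichever single library was left out. Mmp9, the gelatinase B gene, was at 9.55, 15.9 and 10.7 CPM in sham and at 131, 52.3 and 66.9 CPM in Ang II. Its libraries did not overlap between the groups and its log2 fold change was 2.82 ± 0.39 (SE, adjusted p = 0.00613, edgeR). Retnlg, which codes for a resistin-like protein secreted by myeloid cells, was at 2.49, 8.25 and 3.73 CPM in sham and at 87.1, 42.1 and 43.6 CPM in Ang II. It rose by 3.59 ± 0.51 (SE, adjusted p = 0.00675, edgeR), although of the 10 genes it had the widest relative spread in WT sham.

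Cxcr2, the receptor that guides mature neutrophils towards CXC chemokines, had the smallest rise. It was at 5.98, 11.8 and 4.28 CPM in WT sham and at 30.2, 18.3 and 29.2 CPM in WT Ang II. The lowest Ang II library was above the highest sham library, and the log2 fold change was 1.84 ± 0.4 (SE, adjusted p = 0.023, edgeR). This call was lost in a single fit over all 12 libraries (adjusted p = 0.0694) and without WT Ang II replicate 3 (adjusted p = 0.0753).

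**Figure D2:**
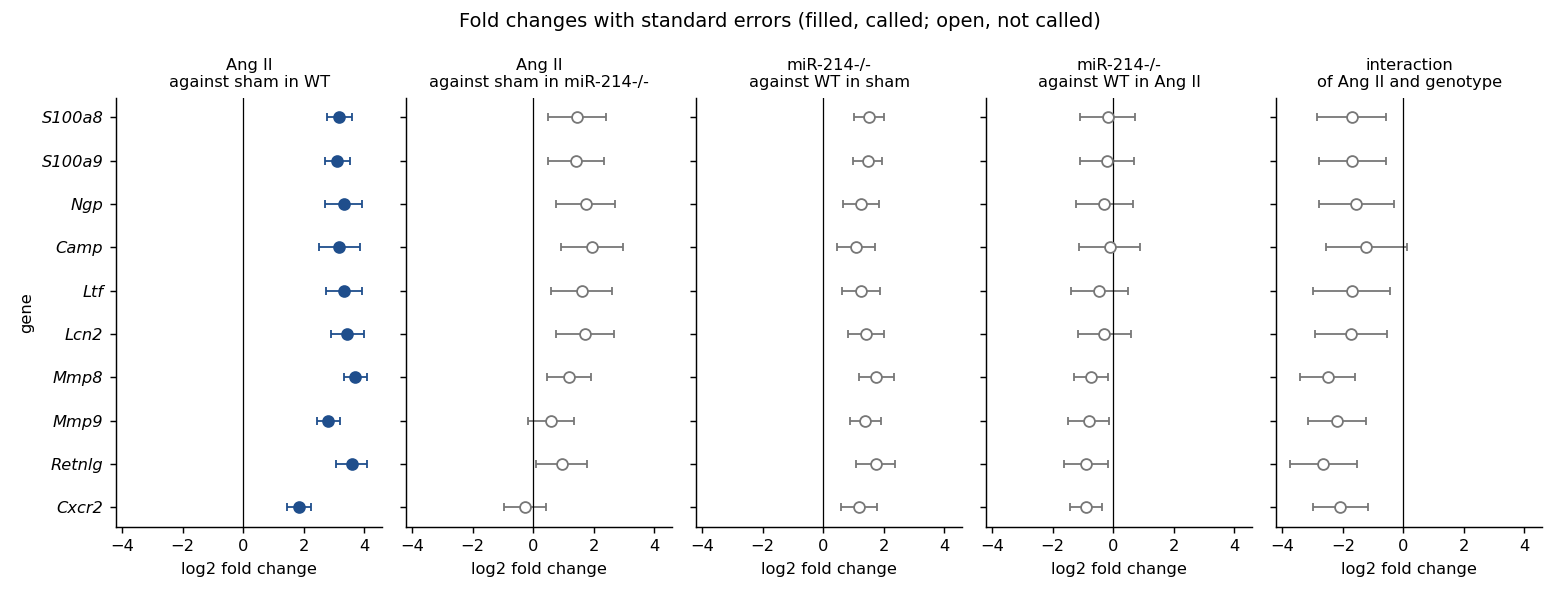
Log2 fold change of each gene in the 5 comparisons, with bars of 1 standard error from edgeR. Filled points passed the threshold and open points did not, so that the 10 filled points all belong to Ang II against sham in WT.

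In miR-214-/- mice no gene of the 10 was called for Ang II against sham. The log2 fold changes were between -0.26 (Cxcr2) and 1.95 (Camp) with a median of 1.43, against 0.03 over all genes tested, and 9 of 10 were above 0. Adjusted p-values from edgeR were between 0.48 and 0.901. An unadjusted p under 0.05 was found for 0 of the 10 and for 1939 of all 15937 genes tested. Over all genes edgeR called 0% and DESeq2 0.391%, and DESeq2 called 0 of the 10. The groups of all 10 genes overlapped, where 19.3% of all genes tested had groups that did not.

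S100a8 was at 90.1, 27.5 and 144 CPM in miR-214-/- sham and at 106, 562 and 44.8 CPM in miR-214-/- Ang II. Replicates 1 and 3 of the Ang II group lay within the range of the sham group and replicate 2 lay above it. Its log2 fold change was 1.45 ± 0.95 (SE, adjusted p = 0.558, edgeR). Ngp was at 99.8, 18.9 and 135 CPM in sham and at 129, 655 and 65 CPM in Ang II, with the same order of libraries. Cxcr2 was at 6.11, 13.1 and 31.2 CPM in sham and at 9.91, 26.1 and 5.89 CPM in Ang II, so that its highest library was a sham library. When replicate 2 of miR-214-/- Ang II was left out, the 10 genes had a median of -0.04 on the log2 scale, and 4 of 10 were above 0. The value for Ang II in miR-214-/- therefore rested on that library.

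Without Ang II, 10 of 10 genes had a higher mean in miR-214-/- than in WT, but no difference was called. The log2 fold changes between the sham groups were from 1.08 (Camp) to 1.76 (Mmp8) with a median of 1.41, against -0.01 over all genes. edgeR called 0 of the 10 (adjusted p between 0.701 and 0.825) and 0.0189% of all genes, and DESeq2 called 0 of the 10 and 0.289% of all genes. In edgeR 6 of the 10 had an unadjusted p under 0.05, as did 1061 of all 15913 genes tested. The libraries of miR-214-/- sham were wide apart. For S100a9 they were at 141, 48.3 and 224 CPM, against 50.2, 58.4 and 40.6 CPM in WT sham. Replicates 1 and 3 were thus above all WT sham libraries and replicate 2 was among them. Lcn2, at 28.5, 6.27 and 46.4 CPM, and Mmp8, at 12.7, 4 and 26.6 CPM, had the same order. Mmp9 alone had groups that did not overlap, as 10.2% of all genes tested did, with 17.9, 15.9 and 60.8 CPM in miR-214-/- sham against a highest WT sham library that also rounded to 15.9 CPM. The median log2 fold change was 0.76 without miR-214-/- sham replicate 3 and 1.81 without replicate 2, and in the latter case S100a8 alone was called (adjusted p = 0.0362, edgeR).

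After Ang II, the level in miR-214-/- was lower than in WT for each of the 10 genes, by log2 fold changes between -0.9 (Retnlg) and -0.12 (Camp), and none was called. The median was -0.38, against 0 over all genes. Adjusted p-values were between 0.589 and 0.967 in edgeR. An unadjusted p under 0.05 was found for 0 of the 10 and for 1388 of all 16215 genes tested. All 10 genes had overlapping groups, where 14% of all genes did not overlap. edgeR called 0% of all genes and DESeq2 0.143%, with 0 of the 10 among them. S100a9 was at 182, 845 and 69.5 CPM in miR-214-/- Ang II and at 714, 246 and 312 CPM in WT Ang II. The highest library of the 12 was in the miR-214-/- group and the other two of its group were below all WT Ang II libraries. Retnlg, at 24.4, 61.5 and 6.37 CPM against 87.1, 42.1 and 43.6 CPM, differed by -0.9 ± 0.73 (SE, adjusted p = 0.653, edgeR). The direction depended on 1 library in either group, since the median was 0.41 without WT Ang II replicate 1, 0.08 without miR-214-/- Ang II replicate 3 and -1.83 without miR-214-/- Ang II replicate 2. Without both WT Ang II replicate 1 and miR-214-/- Ang II replicate 2 it was -1.09, with 0 genes called.

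The change after Ang II was compared between the genotypes as an interaction over the 12 libraries. All 10 estimates were below 0, that is, the rise was smaller in miR-214-/-, with a median of -1.72 on the log2 scale against 0.01 over all genes. edgeR called 0 of the 10 genes (adjusted p between 0.262 and 0.676) and 0.00596% of all genes, and DESeq2 called 0 of the 10 and 3.22% of all genes. An unadjusted p under 0.05 was found in edgeR for 2483 of all 16770 genes tested. Among the 10 it was found for Mmp8 (-2.5 ± 0.91, SE, adjusted p = 0.262), Retnlg (-2.64 ± 1.1, SE, adjusted p = 0.308), Cxcr2 (-2.08 ± 0.9, SE, adjusted p = 0.318) and Mmp9 (-2.2 ± 0.96, SE, adjusted p = 0.32), all from edgeR. Hence the call in WT and its lack in miR-214-/- do not show that the genotypes differed. The median was -3.26 without miR-214-/- Ang II replicate 2, -1.09 without WT Ang II replicate 1 and -1.15 without miR-214-/- sham replicate 3. It was -2.68 without both WT Ang II replicate 1 and miR-214-/- Ang II replicate 2, and 0 of the 10 were called in each of these fits. The comparisons share groups, and their values are not independent of each other.

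To compare the genes with each other, levels were divided by the length of their annotated exons and are given as CPM per kilobase. S100a9 was the most abundant, followed by S100a8 and Ngp, in 12 of 12 libraries. In WT sham S100a9 was at 95.3 ± 17.1 CPM per kilobase (SD, n = 3), S100a8 at 43.8 ± 3.55 and Ngp at 29.1 ± 6.69, and the ranges of these neighbours in the order did not overlap. Camp (11.4 ± 4.8), Ltf (9.12 ± 1.8) and Retnlg (8.14 ± 5.12) followed with overlapping ranges. Lcn2, Mmp9, Cxcr2 and Mmp8 were the lowest, between 3.84 ± 0.567 for Lcn2 and 1.76 ± 0.204 for Mmp8, each overlapping with the next. In WT Ang II the order of the first 4 genes was the same, from S100a9 at 813 ± 486 CPM per kilobase to Camp at 102 ± 92. Cxcr2 was then the lowest at 8.49 ± 2.17, below Mmp8 at 22.6 ± 11.6 with no overlap of their ranges. In the miR-214-/- groups each gene overlapped with the next in the order, with S100a9 at 264 ± 168 CPM per kilobase in sham and 700 ± 802 in Ang II.

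The spread within a group differed between the groups. The highest library of a group exceeded the lowest by a median of 1.52 times over the 10 genes in WT sham, 2.92 times in WT Ang II, 5.94 times in miR-214-/- sham and 9.8 times in miR-214-/- Ang II. In miR-214-/- Ang II, replicate 2 was the highest and replicate 3 the lowest for all 10 genes. In miR-214-/- sham, replicate 3 was the highest for 9 genes and replicate 2 the lowest for 8. In WT Ang II, replicate 1 was the highest and replicate 2 the lowest for all 10. In WT sham there was no shared order, since replicates 1, 2 and 3 were the highest for 5, 4 and 1 genes and the lowest for 3, 3 and 4. Over the 12 libraries, the Pearson correlation of log2 CPM between pairs of the 10 genes was between 0.64 and 1 with a median of 0.94 (45 pairs). After the group means were subtracted, it was between 0.49 and 1 with a median of 0.88. These pairs share libraries and their scaling, and the correlations are a description.

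Ratios of counts within a library do not depend on its depth or scaling. S100a9 to S100a8 was between 1.47 and 1.87 in all 12 libraries, and Ltf to Ngp between 0.736 and 0.93. Camp to Ngp was between 0.178 and 0.288, and Lcn2 to Ngp between 0.265 and 0.376. These pairs therefore kept nearly fixed proportions in both genotypes and treatments. By contrast, the ratio to Ngp changed 3.34 times between libraries for Mmp8, 5.71 times for Mmp9, 8.23 times for Retnlg and 17.4 times for Cxcr2. S100a8 to Ngp lay in between, from 0.662 to 1.46, a change of 2.21 times. Mmp9 and Cxcr2 are known to be transcribed later in maturation than Ngp and Ltf. Cxcr2 to Ngp was 0.134, 0.415 and 0.127 in WT sham, 0.0434, 0.119 and 0.148 in WT Ang II, 0.0612, 0.695 and 0.231 in miR-214-/- sham and 0.0768, 0.0399 and 0.0907 in miR-214-/- Ang II. It was lowest in the pair of libraries with the highest summed level, WT Ang II replicate 1 and miR-214-/- Ang II replicate 2, and highest in miR-214-/- sham replicate 2, which had the lowest summed level. Ngp divides this ratio and is also part of the summed level, so the 2 values are not independent. The group ranges overlapped except that each miR-214-/- Ang II library was below each WT sham library.

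**Figure D3:**
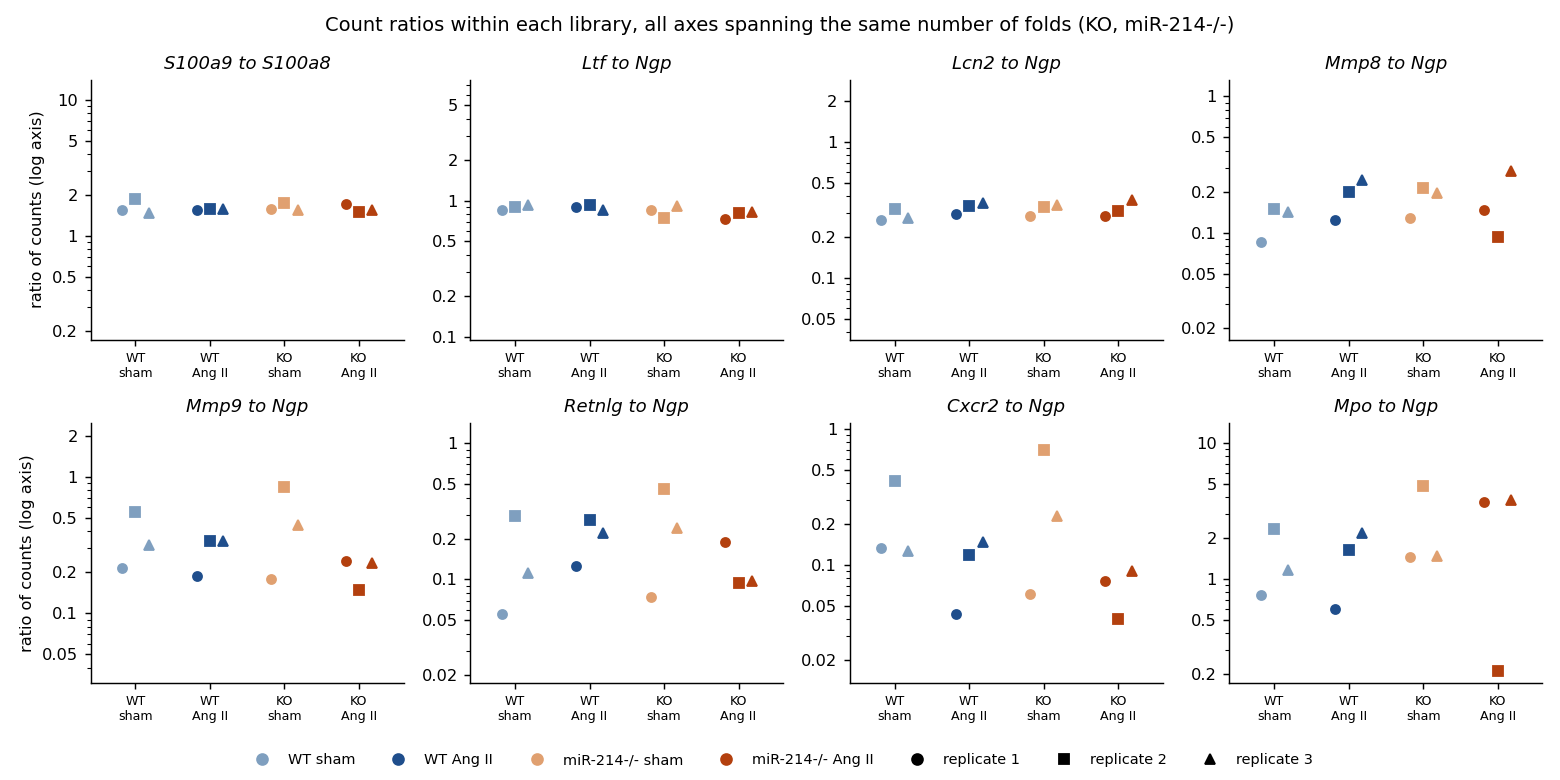
Ratio of raw counts of 2 genes within each library, on log axes that all span the same number of folds. S100a9 to S100a8, Ltf to Ngp and Lcn2 to Ngp are nearly level over the 12 libraries, while Cxcr2 to Ngp ranges from 0.0399 to 0.695 and Mpo to Ngp from 0.212 to 4.84. Shapes and colours are those of replicates and groups.

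Early granule genes, which promyelocytes express, did not follow the 10 genes in every library. Mpo, the gene of myeloperoxidase, was at 46.8 ± 17.4 CPM in WT sham and 367 ± 98.2 CPM in WT Ang II (SD, n = 3). In WT, 7.01% of all genes tested were called higher, with a median log2 fold change of -0.02. Of this list 7 of 7 tested genes (Mpo, Elane, Prtn3, Ctsg, Ms4a3, Fcnb and Prss57) were called higher, with a median log2 fold change of 3.04. In miR-214-/- Ang II their summed level was 713, 246 and 392 CPM, so that replicate 2, the highest for the late genes, was the lowest for the early ones. Mpo to Ngp was accordingly 0.212 in that library and 3.66 and 3.83 in replicates 1 and 3. In WT Ang II the summed level was 665, 384 and 682 CPM, with replicates 1 and 3 alike. None of the 7 was called in the other 4 comparisons.

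Other genes of neutrophils moved with the 10. Of 28 such genes 26 were tested in WT. After Ang II 24 were called higher with a median log2 fold change of 2.5, against 7.01% and -0.02 over all genes. Lyz2, the lysozyme gene that macrophages also express, went from 181 ± 3.46 to 737 ± 484 CPM (SD, n = 3), a log2 fold change of 2.05 ± 0.43 (SE, adjusted p = 0.0206, edgeR). Chil3 rose by 3.31 ± 0.56 (SE, adjusted p = 0.0109), and Anxa1, the annexin A1 gene, by 2.53 ± 0.41 (SE, adjusted p = 0.00987). Olfm4, an olfactomedin of specific granules, had the largest change at 4.19 ± 0.68 (SE, adjusted p = 0.00947) from a low level of 0.352 ± 0.147 CPM in sham. Ly6g, the usual surface marker of mouse neutrophils, was at 0.829 ± 0.333 CPM in sham and 7.27 ± 6.74 CPM in Ang II and was called (3.16 ± 0.72, SE, adjusted p = 0.0268), as were Wfdc21 and Itgb2l. Clec4d and Cd300ld were tested and not called. In the other 4 comparisons 0 genes of this list were called.

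The 10 genes outside the set whose log2 CPM followed it most closely over the 12 libraries, by Pearson correlation with the mean of the 10 standardised profiles, were Wfdc21 (0.979), Pglyrp1 (0.978), Trem3 (0.977), Chil1 (0.976), Bmx (0.971), Cd177 (0.97), Card10 (0.967), Padi4 (0.967), Abca13 (0.966) and Pygl (0.965). In all, 13754 genes were compared and 71 had a correlation above 0.9. Of the 10, 5 were on the list of other neutrophil genes. The points share depth and scaling, and the groups differ in level, so the correlations are given as a description.

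Transcription factors of granulocytes were measured at moderate levels. In WT, 5 of 8 were called higher after Ang II, where 7.01% of all genes tested were. Cebpe, which is needed for specific granules, went from 1.17 to 7.15 CPM in the mean (2.63 ± 0.6, SE, adjusted p = 0.0276, edgeR) and Cebpd from 4.41 to 14.3 CPM (1.72 ± 0.34, SE, adjusted p = 0.0181). Spi1, which codes for PU.1, rose by 1.59 ± 0.36 (SE, adjusted p = 0.0273), Cebpa by 1.07 ± 0.16 (SE, adjusted p = 0.0081) and Cebpb by 1.03 ± 0.22 (SE, adjusted p = 0.0223). Gfi1, Runx1 and Irf8, which lymphocytes also express, were not called, with Runx1 at -0.1 ± 0.11 (SE, adjusted p = 0.526). The median of the list was 1.05 in WT, 0.37 in miR-214-/- Ang II against sham and -0.75 for the interaction, and 0 of 8 were called outside WT.

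The S100 genes other than the calprotectin pair, which many cell types express, were not called. Of 12, 6 passed the filter on low counts, with a median log2 fold change of 0.59 in WT. S100a10, an annexin partner, was at 151 CPM in sham and 145 CPM in Ang II in the mean (-0.04 ± 0.17, SE, adjusted p = 0.893, edgeR), and S100a6 rose by 0.79 ± 0.19 (SE, adjusted p = 0.0322), below the size needed for a call. In WT, 7.01% of all genes tested were called higher. Among ligands, receptors and inhibitors of the 10 proteins, 3 of 12 tested were called higher in WT. These were Cxcl2, a ligand of Cxcr2 (2.23 ± 0.33, SE, adjusted p = 0.00754), Timp3, an inhibitor of matrix metalloproteinases (2.56 ± 0.6, SE, adjusted p = 0.0291), and Fpr2, a receptor of cathelicidin (2.41 ± 0.48, SE, adjusted p = 0.0183) and their mean levels in WT Ang II were 2.96, 0.94 and 11 CPM. Bsg, on the same list, went from 119 to 194 CPM in the mean (0.72 ± 0.13, SE, adjusted p = 0.0117), below the size needed for a call. Timp2 was at 59.1 CPM in sham and 55.6 CPM in Ang II (-0.06 ± 0.13, SE, adjusted p = 0.755), and Lrp1, Ager, Tlr4 and Cxcr1 were not called. Retn, Retnla and Retnlb, the relatives of Retnlg, did not pass the filter. Retnlb had 0 counts in all 12 libraries, which leaves room for an expected count of up to about 3 in each. None of these lists had a call outside WT.

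**Figure D4:**
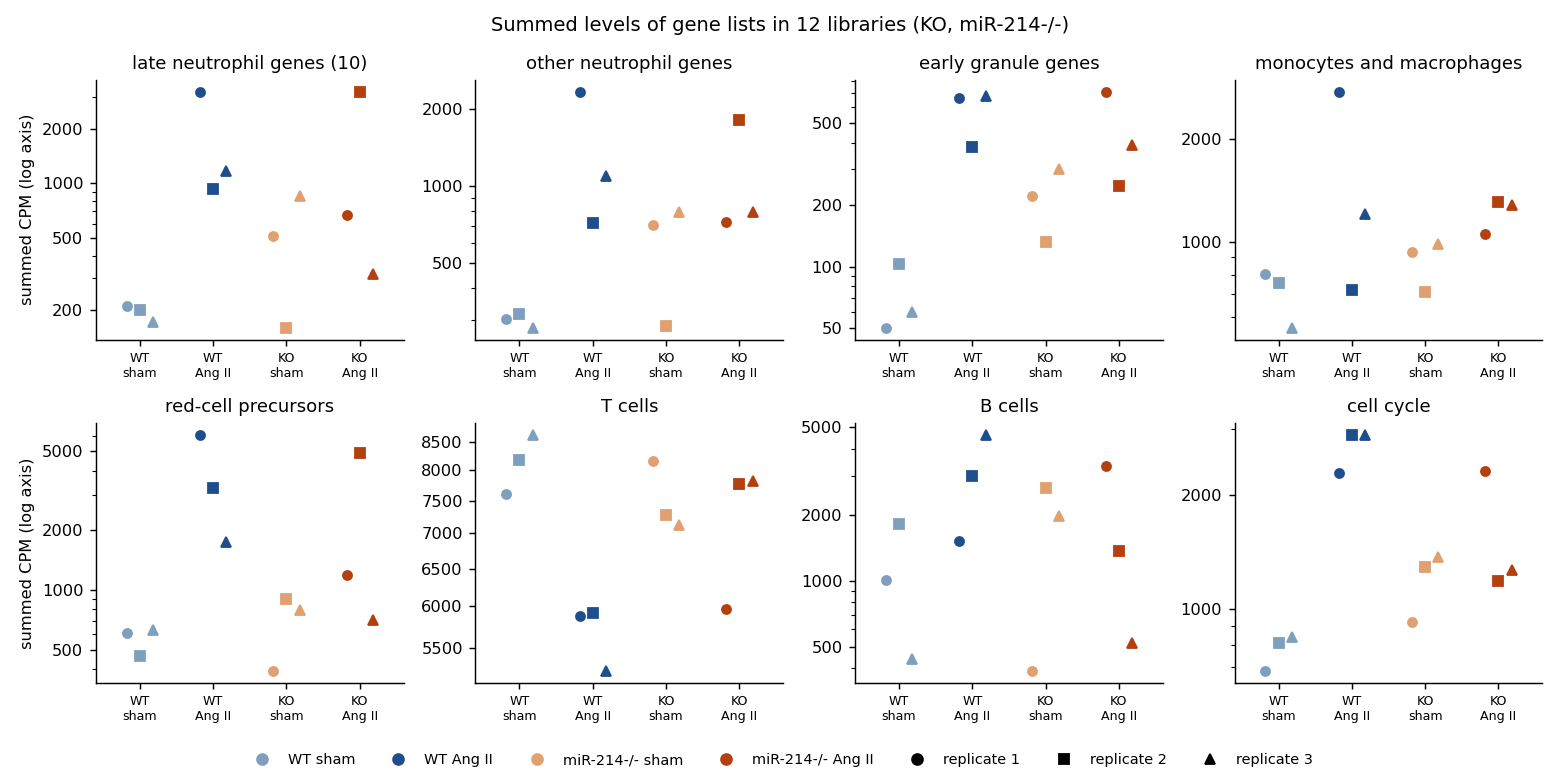
Summed level of 8 gene lists in each library, in CPM on log axes that differ between panels. The 10 late neutrophil genes and the red-cell precursor genes are highest in WT Ang II replicate 1 and miR-214-/- Ang II replicate 2, while early granule genes, B cell genes and T cell genes order the libraries differently.

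Markers of some other cells, and cell cycle genes, were also called higher in WT, while those of lymphocytes were not. Over all genes tested in WT, 7.01% were called higher, with a median log2 fold change of -0.02. After Ang II, 8 of 13 genes of red-cell precursors were called higher (median 2.7), 7 of 8 of basophils and mast cells (1.68), 6 of 8 of eosinophils (2.89), 3 of 14 of monocytes and macrophages (0.78), 3 of 8 of megakaryocytes and platelets (1.25) and 19 of 20 of the cell cycle (2.06). None of 8 B cell markers (median -0.31), 4 NK cell markers (-0.73) or 16 T cell markers (-0.48) was called. Of the T cell markers, all but Cd28 (adjusted p = 0.0504) and Cd8a (0.0595) had an adjusted p below 0.05 in edgeR. Their falls were below the size needed for a call, with Tcf7 at -0.5 ± 0.08 (SE, adjusted p = 0.0107) and Lck at -0.55 ± 0.11 (SE, adjusted p = 0.0203). All 16 T cell markers were lower in each WT Ang II library than in each WT sham library, as were 22% of all genes tested. The summed level of T cell markers was between 7604.2 and 8622.9 CPM in WT sham and between 5236 and 5914.2 CPM in WT Ang II. In none of these lists was a gene called in the other comparisons.

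The red-cell list was at 607, 466 and 627 CPM in WT sham, 6054.1, 3249.5 and 1751.2 CPM in WT Ang II, 392, 899 and 795 CPM in miR-214-/- sham and 1194.5, 4873.3 and 707 CPM in miR-214-/- Ang II. It was highest in the same pair of libraries as the 10 neutrophil genes. Monocyte and macrophage genes were highest in WT Ang II replicate 1 at 2765.7 CPM, and were at 1056.3, 1308.8 and 1282.9 CPM in miR-214-/- Ang II. T cell markers in miR-214-/- Ang II were at 5968.6, 7768.7 and 7827.8 CPM, lowest in replicate 1, not in replicate 2. B cell genes, led by Ighm, were highest in WT Ang II replicate 3 at 4624.9 CPM and at 1370.9 CPM in miR-214-/- Ang II replicate 2. Cell cycle genes were between 684 and 841 CPM in WT sham and between 2290.8 and 2890.6 CPM in WT Ang II, and at 1186.4 CPM in miR-214-/- Ang II replicate 2. The part of cell composition in the levels of the 10 genes was not tested.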

How the data were processed

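RNASeq counts of splenic T cells from 12 mice in 4 groups were used. According to the study's methods and the labels, stranded poly(A) libraries were sequenced paired-end, and reads were trimmed with Trimmomatic and mapped to GRCm38 with STAR. The authors counted uniquely mapped exonic reads per gene with featureCounts of Subread 1.5.2 and deposited raw read counts without normalization. The strand setting and the annotation release are not given in the sources used here. Only uniquely mapped reads were counted, so genes that share reads with near-identical copies are uncertain. Of 49315 identifiers, 49056 matched the GENCODE annotation of GRCm38. Total counts were between 21126874 and 29605988. Of the 12 pairs of libraries within a group, 0 were identical, and each pair differed by more than counting error (smallest chi-square per degree of freedom 10.3).

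The main test was edgeR 4.0.16 under R 4.3.3 (filterByExpr on the groups compared, TMM scaling, quasi-likelihood test at its defaults, Benjamini-Hochberg adjustment over all genes tested). A call required a log2 fold change above 1 in size with an adjusted p below 0.05, or only the latter in the case of the interaction. SE is the log2 fold change divided by the square root of its F statistic. CPM used TMM-scaled library sizes, and log2 CPM a prior count of 2. DESeq2 1.42.0 with its Wald test was an alternative. Scripts were tested on simulated data in which 200 genes were changed, with an adjusted p below 0.05 as the only threshold. For Ang II against sham in WT, edgeR recovered 173 of them with 16 false calls and DESeq2 185 with 59. For the interaction, edgeR recovered 156 with 8 false calls and DESeq2 178 with 46.

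Other alternatives were RLE or library size scaling, no filter, 10 counts in every library, adjusted deviances, a robust fit, 1 fit over 12 libraries, the replicate number as a block, the adjusted p alone, and each library left out. Leaving out both highest libraries was chosen after seeing the data. All 10 genes were named whatever their values. Of other lists, the 3 most abundant genes and up to 4 called genes could be named, and others on them that are named were chosen after their values were seen. Genes and lists were chosen with earlier results of these data known.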

Additional observations from a re-analysis of the deposited data

How the results depend on the processing

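For Ang II against sham in WT, 6 to 10 of the 10 genes were called when each library was left out in turn, 9 in a single fit over the 12 libraries, 9 in the robust fit and 10 under the remaining alternatives but the replicate block. With replicate numbers as a block 9 were called (Cxcr2 at an adjusted p = 0.0559), and 0 in each other comparison. The correlation of deviations from group means in 18 same-number pairs was between -0.56 and 0.34, with 7 over 0.1. Pairs with different numbers were not compared, so these values cannot decide whether the numbers pair the samples. The block called 966 genes in WT where 1169 were called without it. For miR-214-/- against WT in sham, 0 to 1 gene was called with a library left out. In the other 3 comparisons 0 of the 10 were called under every alternative run. No log2 fold change of the 10 genes changed sign under an alternative that kept all libraries.

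With a library left out, signs changed in 2 comparisons. For Ang II against sham in miR-214-/-, log2 fold changes ran from -1.09 to 0.55 for Cxcr2, -0.21 to 2.01 for S100a8, -0.13 to 1.95 for S100a9, -0.01 to 2.18 for Ltf, -0.45 to 1.5 for Mmp9 and -0.06 to 1.94 for Retnlg. For miR-214-/- against WT in Ang II they ran from -1.84 to 0.43 for S100a8, -1.75 to 0.39 for S100a9, -1.84 to 0.69 for Ngp, -1.77 to 0.94 for Camp, -2.07 to 0.54 for Ltf and -1.83 to 0.54 for Lcn2. When likeness to the 10 genes was measured by Spearman correlation, 3 of the 10 most alike genes were shared with those by Pearson correlation. Causes were not tested.

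Over all genes, counts of calls differed from the reported ones by more than 1.5 times as follows. DESeq2 called 51 against 0 genes for Ang II in miR-214-/-, 45 against 3 between sham groups, 21 against 0 between Ang II groups and 444 against 1 for the interaction. Without a filter 3 and 9 genes were called for the first and second of these, and between sham groups 5 in the robust fit, 2 with 10 counts in every library, and 0 with the block or 1 fit. With a library left out, counts were 564 to 1338 in WT, 0 to 1 for Ang II in miR-214-/-, 0 to 30 between sham groups, 0 to 1 between Ang II groups and 0 to 919 for the interaction, where 919 were called without miR-214-/- Ang II replicate 1. Without both highest libraries 1 gene was called between Ang II groups and 0 for the interaction. Among the 10 genes, libraries of a group differed by up to 13.6 times, which limits what 3 mice per group can show.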
